A study of Mus musculus with 32 samples.

Results

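Mature eggs of B6xD2 F1 hybrid females were compared with those of B6, the hybrid's first-named parental strain. The members of the comparison were chosen by their labels alone: 5 F1 libraries of metaphase II (MII) oocytes and 6 B6 libraries of the same stage, 11 of the 32 RNA-seq libraries in the series. Each library was a pool of 9 to 20 oocytes from a single female, bought at 7 weeks and used at 8 to 12 weeks of age. No treatment, transgene or deletion was named for any group. Levels are given as CPM, a gene's reads per 1000000 of the scaled total of its library. A change in level is given from B6 to F1, with ± as the SD over the 6 B6 and the 5 F1 libraries, and changes on the log2 scale carry their SE. Libraries of D2 MII oocytes (5) are set beside the comparison for level only, and germinal vesicle (GV) libraries of B6 (5), F1 (6) and D2 (5) are used where named.

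An MII oocyte has completed the first meiotic division and waits for the sperm in metaphase of the second. It makes almost no new transcripts, so its mRNA is a store laid down during growth, from which the embryo draws until its own genome is switched on. An F1 female carries an allele of each parental strain at every autosomal locus, and her eggs are of practical interest because those of F1 hybrids tolerate culture and manipulation better than those of many inbred strains. A transcript that differs between the strains is therefore measured in F1 eggs as the sum of reads from the B6 and the D2 alleles.

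The libraries held 26.8 to 35.9 M counted reads (median 30.2 M), and between 17673 and 21356 genes had a read. Both groups held libraries of batches 1 and 2, which were sequenced on different instruments: 3 and 2 in F1, 3 and 3 in B6. In batch 2 the names of the F1 MII libraries carry a different date from those of the B6 MII libraries, so that date and strain cannot be told apart within that batch. The names of batch 1 libraries carry no date. In principal components of log2 CPM, F1 batch 2 replicate 2 stood apart on the first component (20.4% of variance) and B6 batch 1 replicate 3 on the third (11.9%). The oocyte markers summed to 16514 to 18052 CPM in F1 and to 14736 to 19953 CPM in B6 libraries. The 34 granulosa and cumulus markers summed to 439 to 542 CPM in F1 and 368 to 522 CPM in B6. Of these, 22 in F1 and 20 in B6 had a mean under 1 CPM, among them Foxl2 and Amh at 0 in both groups. The remaining ones were read at 1 CPM or more. Stroma and endothelium markers (17) summed to 56.5 to 82 CPM and 65.2 to 107 CPM, and blood markers (14) to 3.38 to 16.8 CPM and 1.87 to 8.45 CPM, with all 4 globin genes at 0. No marker of these 3 other cell types passed edgeR's test between F1 and B6 eggs, and at an unadjusted p under 0.05 the 3 lists gave 3 higher and 3 lower genes. DESeq2 called 1 granulosa and cumulus marker lower. Batch 1 alone called 1 marker of that list and 1 blood marker lower. The median changes of the 3 lists were −0.29, −0.56 and −0.41 on the log2 scale, against −0.04 over all genes tested.

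Of 19003 genes tested, 1399 differed between F1 and B6 MII oocytes, which is 7.36%. Higher levels in F1 were the more common: 886 genes (4.66%) were higher and 513 (2.70%) lower in edgeR's quasi-likelihood test at a Benjamini-Hochberg adjusted p of 0.05. At least a 2-fold difference was seen for 402 of the higher and 267 of the lower genes. Large differences went mostly upwards among genes that reached 5 CPM in the higher group (9636 tested). There, 60 genes rose and 12 fell by 4-fold or more, and at 16-fold the counts were 20 and 1. Over called genes of any level 106 were higher and 30 lower by a fitted 16-fold or more, of which 86 and 29 were under 5 CPM in both groups. Among called genes that reached 5 CPM in the higher group, the median change was 0.68 on the log2 scale for the higher and −0.87 for the lower set. Over all genes tested, at any level, it was −0.04. Every F1 library lay above every B6 library for 444 genes (2.34%) and below every B6 library for 381 (2.00%). Statements that groups overlap, here and below, take both batches together unless a batch is named. Groups that overlap in that way can still be apart within each batch. Predicted genes and pseudogenes made up 242 of the 1399.

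The number of lower genes rested on the libraries and on the model more than that of the higher genes. Without F1 batch 1 replicate 5, 698 genes were higher and 333 lower. Those lower by 2-fold or more then numbered 155, and they numbered 174 without F1 batch 2 replicate 2. DESeq2 called 1044 genes higher and 974 lower, a share of 51.7% higher against 63.3% in the edgeR fit, and a fit to the 11 libraries alone called 795 and 740. With a batch term of 3 levels that follows the date in the library names, 756 genes were higher and 383 lower. RNA per oocyte was not measured, so each change is a change in share of the library's reads. In a pool, fewer eggs that hold a transcript and less transcript per egg cannot be told apart.

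**Figure D1:**
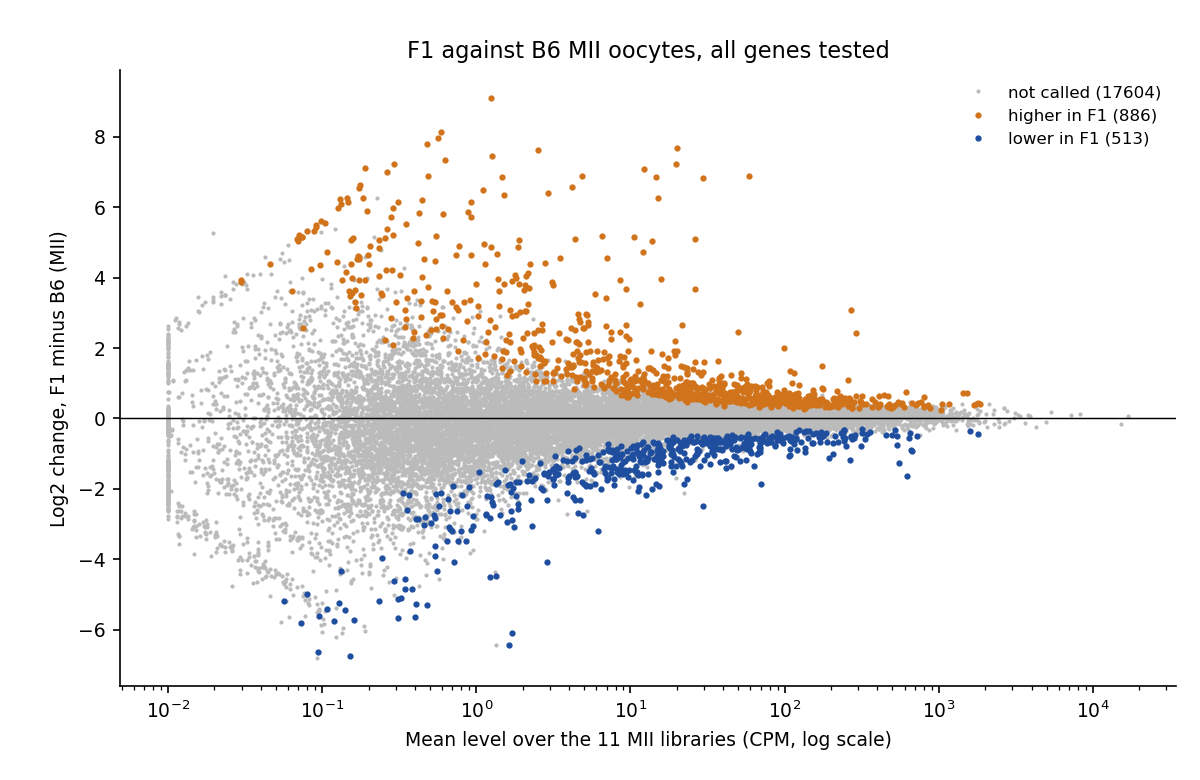
Log2 change of F1 minus B6 in MII oocytes (vertical) against the mean level over the 11 libraries (horizontal, CPM on a log scale) for every gene tested, with genes under 0.01 CPM drawn at 0.01. The 886 higher and 513 lower genes are coloured, and the called genes with the largest changes above 5 CPM lie almost all above 0.

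The largest rises were in genes with hardly a read in B6 eggs. Among them were Thrsp (a regulator of lipogenesis in liver), Slc39a8 (the zinc and manganese transporter ZIP8), Bfsp1 (filensin, an intermediate filament protein of the lens), Pnpla3 (a lipase of lipid droplets), Fam124a, Pknox2 (a homeobox transcription factor), Pxdn (peroxidasin, which cross-links collagen of basement membranes), Arhgef15 (a guanine nucleotide exchange factor), Gsto2 (an omega-class glutathione transferase) and Manba (the lysosomal beta-mannosidase). Each was 6.25 to 7.62 higher on the log2 scale. The sequences before the start sites of 3 of them are shown here with that of Arid5b, the abundant transcript whose level in D2 eggs was furthest below that in B6 eggs among those named below. They are shown because the reference is that of C57BL/6J, a B6 strain, and B6 eggs held hardly any transcript of the first 3. No D2 letters were at hand, so the sequences were not compared between strains. Each is the 250 bases upstream of the start in RefSeq's annotation of GRCm38.p6, 5′ to 3′ on the strand of the gene, with capitals at matches on either strand to any of 4 motifs. The GC box was searched as GGGCGG. The motif of the TATA box was written TATAAA, and that of the CAAT box was CCAAT in the search on both strands. For the E-box the letters searched were CACGTG. No match overlaps another. The windows of Thrsp and Fam124a end where the gene's span begins, whereas those of Bfsp1 and Arid5b precede the start of a RefSeq transcript that begins inside the span of the gene.
Bfsp1, chr2:143863174-143863423, minus strand: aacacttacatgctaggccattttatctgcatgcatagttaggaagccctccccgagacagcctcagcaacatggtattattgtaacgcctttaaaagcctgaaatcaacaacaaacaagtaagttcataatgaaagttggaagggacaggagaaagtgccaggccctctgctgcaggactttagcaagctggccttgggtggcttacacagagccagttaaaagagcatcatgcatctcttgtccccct
Fam124a, chr14:62555487-62555736, plus strand: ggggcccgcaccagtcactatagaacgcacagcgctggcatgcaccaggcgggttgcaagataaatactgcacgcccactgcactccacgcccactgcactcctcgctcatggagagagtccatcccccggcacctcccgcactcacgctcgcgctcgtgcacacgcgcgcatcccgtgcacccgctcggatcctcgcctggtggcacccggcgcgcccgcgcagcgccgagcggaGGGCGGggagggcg
Thrsp, chr7:97417551-97417800, minus strand: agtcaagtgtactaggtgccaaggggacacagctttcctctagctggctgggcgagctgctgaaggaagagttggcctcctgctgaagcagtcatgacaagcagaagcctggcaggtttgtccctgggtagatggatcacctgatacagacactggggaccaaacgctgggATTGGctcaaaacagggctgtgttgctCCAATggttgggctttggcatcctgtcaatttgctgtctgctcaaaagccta
Arid5b, chr10:68278727-68278976, minus strand: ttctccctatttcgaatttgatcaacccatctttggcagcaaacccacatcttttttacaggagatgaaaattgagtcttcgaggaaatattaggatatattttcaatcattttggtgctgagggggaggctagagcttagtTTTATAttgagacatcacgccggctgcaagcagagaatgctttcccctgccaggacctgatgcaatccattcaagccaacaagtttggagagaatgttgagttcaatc

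The window before Bfsp1 held 2 CpG dinucleotides and none of the 4 motifs, and that before Thrsp held 2 CpG and 2 CAAT box matches. The window before Fam124a held 30 CpG and a GC box, and that before Arid5b held 4 CpG and a TATA match. Over 32851 such windows the median was 6 CpG, and the GC box was found in 32.7%, the CAAT box in 33.8%, the TATA box in 12.4% and the E-box in 6.02%. These matches describe letters and not bound sites. Of 69 named genes, 53 were matched by symbol in that table.

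Pnpla3 (chromosome 15, 84167776 to 84189521) was at 139.7 and 121 CPM in the F1 libraries of batch 2 and at 124, 133 and 116 CPM in those of batch 1. The 6 B6 libraries ran from 0.725 to 1.6 CPM (median 1.09). The groups lay far apart, and the fitted change was 6.89 ± 0.20 on the log2 scale (SE), with an adjusted p of 2.65e-24 in edgeR's quasi-likelihood test. D2 eggs held 292 ± 36.6 CPM (SD, n = 5), so F1 eggs stood at 43.5% of the D2 level. Pxdn (chromosome 12, 29936642 to 30017658) was at 73.4 and 64.6 CPM in F1 batch 2 and at 59.9, 66.6 and 58.5 CPM in F1 batch 1. In B6 its range was 0.148 to 0.958 CPM (median 0.521), and no library of either group came near the other. The change was 6.82 ± 0.34 (adjusted p = 4.27e-16), and D2 eggs held 176 ± 23 CPM (SD, n = 5).

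Slc39a8 (chromosome 3, 135816882 to 135888572) was at 43.4, 18.1, 44, 52.7 and 55.8 CPM in the F1 libraries, in the order batch 2 then batch 1. B6 libraries held 0.0648 to 0.693 CPM (median 0.199), and the change was 7.24 ± 0.45 (adjusted p = 8.06e-14). D2 held 38.5 ± 5.74 CPM (SD, n = 5), F1 minus D2 was 0.13 ± 0.34 on the log2 scale (SE), and its adjusted p was 0.888. The difference between F1 and D2 also missed the threshold for Thrsp, Fam124a, Pknox2 and Manba (adjusted p of 0.311, 0.764, 0.075 and 0.195). Bfsp1 (chromosome 2, 143826528 to 143915219) was at 28, 26.4, 18.7, 25.5 and 35.6 CPM in F1 and at 0.0631 to 0.357 CPM in B6 (median 0.209). It rose by 7.09 ± 0.31 (adjusted p = 2.31e-18), to 53.8% of the D2 level of 49.9 ± 11.4 CPM (SD, n = 5). Every F1 library lay above every B6 library for both genes.

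Thrsp (chromosome 7, 97412933 to 97417550) was at 5.23, 6.54, 3.63, 9.15 and 2.93 CPM in F1, and 3 of 6 B6 libraries had no read. Its B6 level rests on 4 reads in all, against 714 in F1, so that the fitted change of 7.62 ± 0.66 (adjusted p = 1.16e-10) has little precision at its lower end: without B6 batch 2 replicate 2 it was 8.28. Fam124a rested on 16 B6 and 1355 F1 reads, Arhgef15 on 15 and 1230, and Gsto2 on 12 and 863. Their F1 levels were 10.5 ± 3.36, 9.14 ± 3.3 and 6.38 ± 2.94 CPM (SD, n = 5), with D2 levels of 11.7 ± 3.66, 20.4 ± 6.36 and 16.2 ± 6.84 CPM (SD, n = 5). Pknox2 stood at 32 ± 12.6 CPM and Manba at 32.8 ± 10.4 CPM in F1 eggs, against 0.293 ± 0.13 and 0.408 ± 0.21 CPM in B6 (SD, n = 6). All 5 F1 libraries lay above all 6 B6 libraries for each of these 10 genes.

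**Figure D2:**
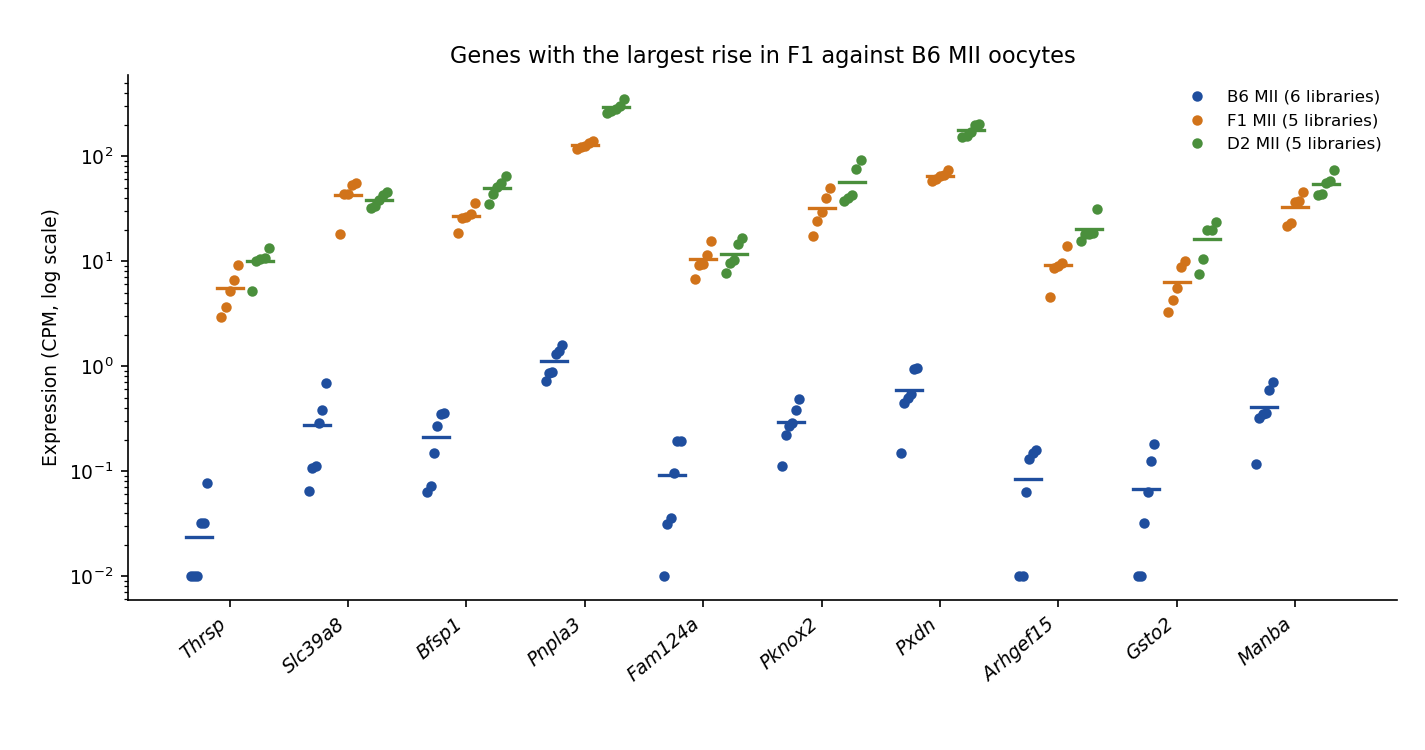
Level per library (CPM, log scale) of the 10 named genes with the largest rise in F1 MII oocytes. Points are libraries of B6 (6), F1 (5) and D2 (5) MII oocytes, lines are group means, and libraries without a read are drawn at 0.01 CPM. F1 points lie above all B6 points for each of the 10 genes.

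Among transcripts with a mean of at least 50 CPM over the 11 libraries, those with the lowest adjusted p included genes of membrane lipids, the cytoskeleton, organelles and the extracellular matrix. Ugcg, which makes glucosylceramide, the first step of glycosphingolipid synthesis, was at 528 and 574 CPM in F1 batch 2 and 496, 413 and 567 CPM in F1 batch 1. B6 libraries held 48.3 to 73.7 CPM (median 62.5), and D2 libraries 933 ± 144 CPM (SD, n = 5). The rise was 3.09 ± 0.14 on the log2 scale (adjusted p = 4.42e-18). Triobp, which bundles actin filaments, was at 622, 756, 451, 384 and 345 CPM in F1 and at 53.3 to 155 CPM in B6 (median 96.4). Its rise was 2.42 ± 0.13 (adjusted p = 1.67e-16). Mtfr2, a factor of mitochondrial fission, was at 110.0 and 128 CPM in F1 batch 2 and 204, 177 and 225 CPM in F1 batch 1, against 26 to 55.9 CPM in B6 (median 38.4), and rose by 2.00 ± 0.12. Lamc1, a laminin chain of basement membranes, rose (adjusted p = 2.54e-11) from 96.6 ± 19.3 CPM in B6 (SD, n = 6) to 269.8 ± 30.8 CPM in F1 (SD, n = 5). Atp6v1b2, a subunit of the proton pump of lysosomes, rose by 0.94 ± 0.09, from 86.7 ± 5.45 to 169 ± 24.3 CPM. For all 5 of these genes every F1 library lay above every B6 library, and the D2 mean was above that of F1.

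Among transcripts of that level that fell, cytoskeletal and chromatin proteins were represented. Myo10, an unconventional myosin of filopodia, was at 368 and 347 CPM in F1 batch 2 and at 216, 192 and 252 CPM in F1 batch 1, against 576 to 1314 CPM in B6 (median 932). It fell by 1.64 ± 0.19 on the log2 scale (adjusted p = 1.14e-07), and D2 eggs held 118 ± 64.5 CPM (SD, n = 5). No F1 library reached the lowest B6 library.

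Arid5b, a DNA-binding protein with an AT-rich interaction domain, was at 522, 535, 381, 378 and 360.3 CPM in F1 and 630.0 to 1061 CPM in B6 (median 818). D2 eggs held 8.98 ± 2.98 CPM (SD, n = 5), and F1 eggs stood at 51.7% of the B6 level, a fall of 0.90 ± 0.12 (adjusted p = 1.17e-06). Pramel27, a PRAME-like gene expressed in oocytes, was at 91.7, 80.6, 164, 129 and 152 CPM in F1 and 188 to 333 CPM in B6 (median 259), with 24.6 ± 7.05 CPM in D2 (SD, n = 5). It fell by 1.13 ± 0.14, to 48.4% of the B6 level. Nav1, a microtubule-binding neuron navigator, fell by 1.08 ± 0.11, from 141 ± 30.1 to 65.6 ± 22.9 CPM. Pak7, a kinase of the p21-activated kinase family, fell by 0.87 ± 0.11, from 137 ± 16.9 to 72.8 ± 6.99 CPM. The F1 and B6 libraries did not overlap for any of these 4 genes.

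**Figure D3:**
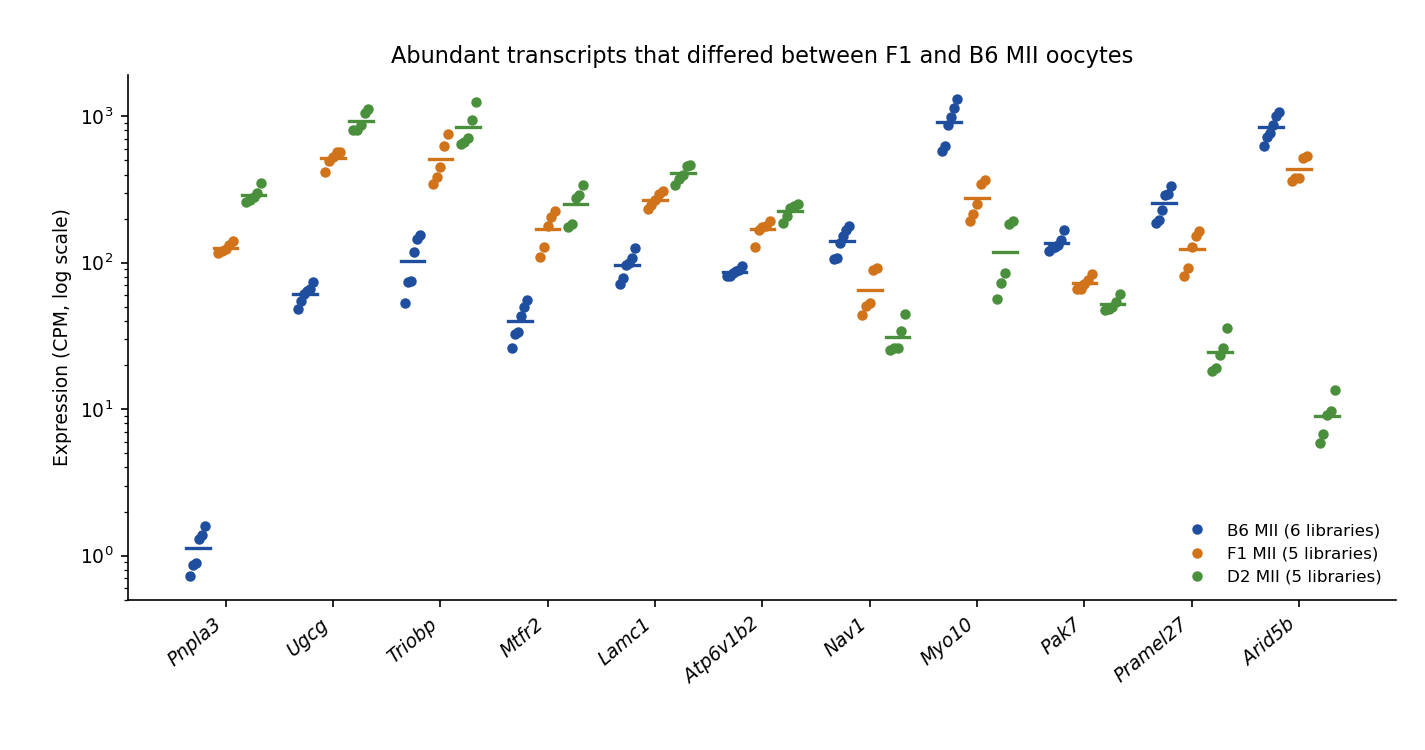
Level per library (CPM, log scale) of 11 abundant named transcripts that differed between F1 and B6 MII oocytes, with group means as lines. F1 means lie between the B6 and D2 means for each of the 11 genes: Ugcg at 516 CPM on average lies between 61.3 and 933, and Arid5b at 435 CPM between 842 and 8.98.

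The largest falls were smaller than the largest rises and involved scarcer transcripts. Muc20, a membrane mucin, was at 11.8 and 11.8 CPM in F1 batch 2 and 5.02, 7.56 and 3.91 CPM in F1 batch 1. B6 libraries ran from 24.9 to 83.4 CPM (median 42.1), none of them as low as any F1 library. It fell by 2.49 ± 0.26 on the log2 scale (adjusted p = 1e-08), and D2 eggs held 3.34 ± 2.45 CPM (SD, n = 5). Foxp2, a forkhead transcription factor known from the brain, was at 3.93, 3.12, 4.47, 6.16 and 3.22 CPM in F1 and 15.5 to 26.5 CPM in B6 (median 18.4). It fell by 2.18 ± 0.39 (adjusted p = 0.000222). Fxyd6, which modulates the sodium pump, fell by 2.75 ± 0.51 (adjusted p = 0.000402), from 8.07 ± 2 to 1.2 ± 0.425 CPM. Itgb4, an integrin chain of hemidesmosomes, fell by 2.01 ± 0.37 (adjusted p = 0.000336), from 9.84 ± 4.34 to 2.41 ± 0.401 CPM. All 5 F1 libraries lay below all 6 B6 libraries for these 4 genes.

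For other members of that set the size of the change or the call moved with the libraries used. Trem1, a receptor of myeloid cells, was at 40.6 CPM in B6 batch 1 replicate 3 and at 2.24 to 9.82 CPM in the other B6 libraries, against 0.796 to 1.9 CPM in F1. Its change was −3.20 ± 0.68 on the log2 scale (adjusted p = 0.00203), and −1.74 without that library (adjusted p = 0.0443). Far2, which reduces fatty acyl-CoA to alcohol, was called at −2.70 ± 0.78 (adjusted p = 0.0264). Its call was lost without F1 batch 2 replicate 1 or 2, F1 batch 1 replicate 5 or B6 batch 2 replicate 3 (adjusted p of 0.0578, 0.0661, 0.0745 and 0.0503), while its change stayed between −2.33 and −2.75 and the groups did not overlap. The groups of Lrrc31 overlapped over both batches but not within either batch. It was called at −2.31 ± 0.67, and its change was −1.40 without B6 batch 1 replicate 3 (adjusted p = 0.178). Its call was also lost without F1 batch 2 replicate 1 or F1 batch 1 replicate 4 or 5 (0.0721, 0.0705 and 0.0825). Fer1l6, of the ferlin family, was at 4.19 CPM in F1 batch 2 replicate 1 and 0.173 to 1.05 CPM in the other F1 libraries. Its change of −2.31 ± 0.62 became −3.41 without that library, and the call was lost without F1 batch 1 replicate 3 or 4 (0.052 and 0.0507). The netrin receptor gene Dcc, at −2.11 ± 0.57, lost its call without F1 batch 2 replicate 1 (−1.95, adjusted p = 0.0525). Extl1, a glycosyltransferase gene at −1.90 ± 0.58 (adjusted p = 0.0391), lost its call on leaving out any of 8 libraries: F1 batch 2 replicate 1 or 2, F1 batch 1 replicate 3 or 5, B6 batch 2 replicate 2 and each of the 3 B6 libraries of batch 1, with adjusted p from 0.0541 to 0.11. Its change in those fits was −1.70 at the weakest, and all 5 F1 libraries lay below all 6 B6 libraries.

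How F1 levels stood to those of the parents was described with genes that GV libraries, whose levels are no part of the MII group means though they share the fit's filter, batch term and estimate of spread, showed to be on in a parental strain (mean of at least 5 CPM) and near off in the other (under 0.5 CPM). Of 41 genes on in D2 and near off in B6 at GV, 17 also reached 5 CPM in D2 MII eggs. All 17 were called higher in F1 than in B6 MII eggs, against 4.66% of all genes. The median F1 level was 49.6% of the D2 level (interquartile range 34.7 to 55.2%), and B6 stood at 0.78%. Grb7, a signalling adaptor chosen for mention after its values were seen, was at 33.2% of D2, while Fam124a at 89.4% and Slc39a8 at 111% were the highest of the genes that are not predicted ones. Over the F1 libraries the median percent was 55.3, 45.8, 42.4, 50.8 and 39.9%, a mean of 46.8 ± 6.2% (SD, n = 5).

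Of 65 genes on in B6 and near off in D2 at GV, 56 reached 5 CPM in B6 MII eggs, a condition that uses B6 levels which also enter the comparison. In F1 eggs 28 were called lower, against 2.70% of all genes, and none was called higher. The median F1 level was 34.9% of the B6 level (interquartile range 31.2 to 44.4%), and per library it was 39.6, 25.6, 39.6, 40.5 and 36.5%, with a mean of 36.4 ± 6.2% (SD, n = 5). The set holds 10 genes of the Vmn1r family of vomeronasal receptors and many pseudogenes, which have near-identical copies. Without predicted genes, pseudogenes and Vmn1r genes the median was 43.2% over 14 genes. Among these, Sh3rf2, an adaptor of stress kinase signalling, was at 41.3% of B6 and Fgf7, a growth factor for epithelial cells, at 45.6%. Both were chosen after their values were seen. The share of F1 reads from each allele was not measured.

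A wider list of strain-variable genes from the GV libraries moved the same way. Of 1740 genes higher in D2 than in B6 GV oocytes (9.16% of genes tested), 667 were higher and 2 lower in F1 MII than in B6 MII oocytes, with a median of 0.48 on the log2 scale. Of 2151 genes lower in D2 GV oocytes (11.3%), 343 were lower and 1 higher in F1 MII oocytes, with a median of −0.39. The first list held 75.3% of the genes higher in F1 MII oocytes and the second 66.9% of those lower. Of 15112 genes not called between D2 and B6 GV oocytes, 218 were higher and 168 lower in F1 MII, which is 1.44% and 1.11%.

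The same contrast in GV oocytes, F1 against B6, called 1045 genes (5.50%), and these libraries are separate from the MII ones. Of 538 genes higher in F1 GV oocytes 354 were also higher in F1 MII oocytes (65.8% of the GV list and 40% of the MII list), and of 507 lower 200 were also lower (39.4% and 39%). None was called in opposite directions. The difference between the stages was itself tested, and 2 of 19003 genes passed (0.0105%), Pknox2 and Pxdn. Pxdn was 6.82 higher on the log2 scale in F1 than B6 at MII and 3.66 higher at GV, a difference of 3.16 ± 0.43 (SE, adjusted p = 0.000188). Its level was 58.2 ± 12.7 CPM in F1 GV (SD, n = 6) and 4.38 ± 2.88 CPM in B6 GV oocytes (SD, n = 5), against means of 64.6 and 0.588 CPM at MII. Pknox2 was 6.85 higher at MII and 3.48 at GV, a difference of 3.38 ± 0.46 (adjusted p = 0.000188). F1 held 21 ± 8.17 CPM and B6 1.86 ± 2.27 CPM at GV, against 32 and 0.293 CPM at MII. For both genes the ratio between the stages was larger for the B6 means than for the F1 means. The count was 19 by DESeq2 and 0 by limma-voom, which gave 1313 genes at an unadjusted p under 0.05.

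**Figure D4:**
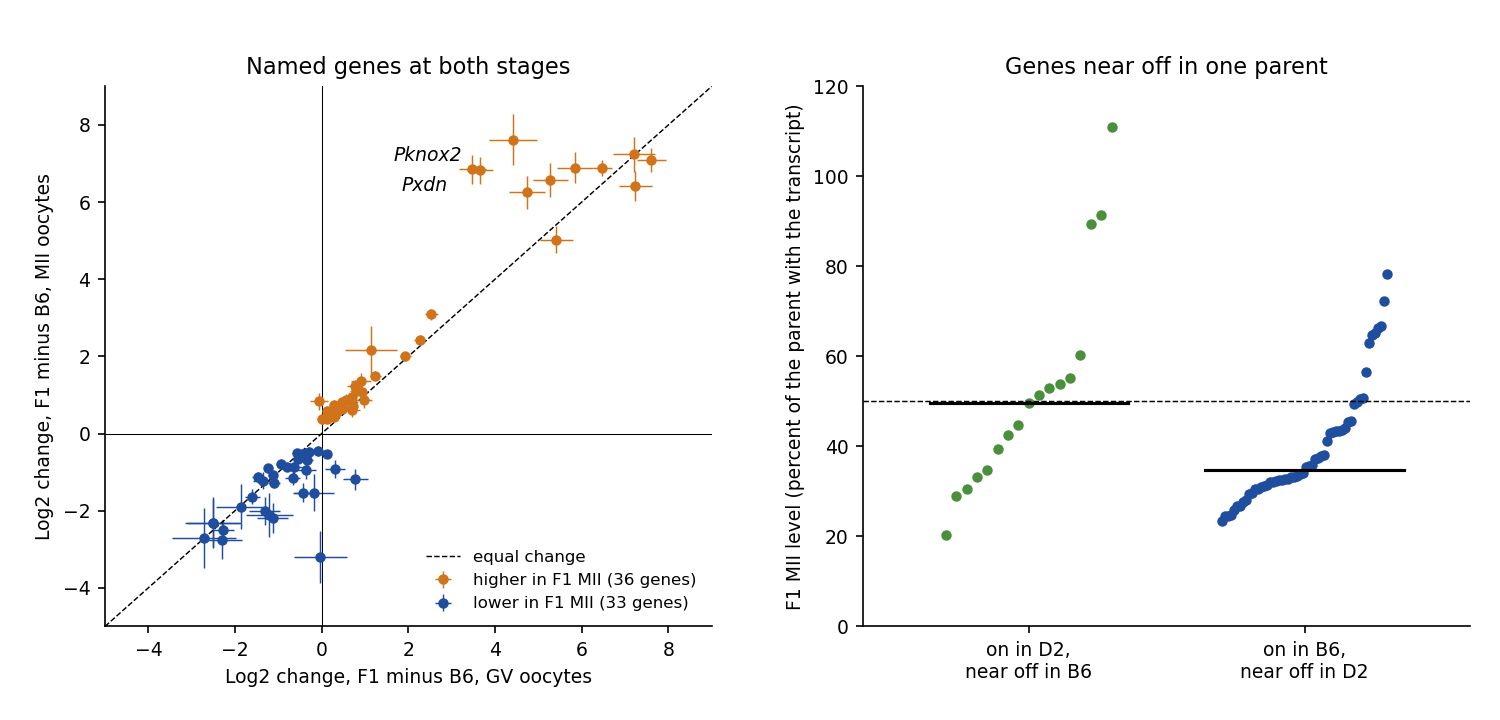
Left: log2 change of F1 minus B6 in MII (vertical) and in GV oocytes (horizontal) for the 69 named genes, with SE bars and a dashed line of equal change. Right: F1 MII level as percent of the parent that has the transcript, for 17 genes near off in B6 and 56 near off in D2, with medians of 49.6% and 34.9% as solid lines and 50% dashed.

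Functional lists differed in how many members were called, and these are read against 4.66% higher and 2.70% lower over all genes. No member passed among 52 kinases and other regulators of meiosis, the genes that hold and release the meiotic arrest, and the median change was 0.02 on the log2 scale. At an unadjusted p under 0.05 edgeR gave 3 higher and 3 lower members, and DESeq2 called 0 and 1 after adjustment. Among 17 genes listed under the zona pellucida and oocyte-secreted factors, 1 was higher and 0 were lower. The higher one is counted again among the Pramel and Oog genes below. That gene, Oog1, a PRAME-like gene of oocytes, was at 1672 and 1620 CPM in F1 batch 2, 2535, 2228 and 2614 CPM in F1 batch 1 and 1169 to 1980 CPM in B6 (median 1493), a rise of 0.43 ± 0.11 (adjusted p = 0.0133). Each F1 library lay above the B6 libraries of its own batch. Oog1 has near-identical copies that can share its reads. Among 36 genes of sperm binding, fusion and egg activation, Slc39a8 was higher and Itpr2 lower. Itpr2, an inositol trisphosphate receptor that releases stored calcium, was at 76.4, 75.4, 86.5, 92.6 and 91.3 CPM in F1 and at 116 to 167 CPM in B6 (median 122), without overlap. It fell by 0.65 ± 0.12 (adjusted p = 0.000353). Of 21 genes of the subcortical maternal complex and the Nlrp family, 2 were higher. Nlrp4e rose by 0.59 ± 0.13 (adjusted p = 0.00248), with 3 of 5 F1 libraries above all B6 libraries and each above those of its own batch. Nlrp4c, at 0.38 ± 0.12 (adjusted p = 0.0378), lost its call with other scalings and without any of 6 libraries: B6 batch 2 replicate 1, the 3 B6 libraries of batch 1, and F1 batch 1 replicate 3 or 5 (0.0578 to 0.133).

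In the machinery of chromosome segregation single genes moved both ways. Of 58 genes of cohesin, the kinetochore and the spindle checkpoint, 4 were higher and 2 lower. Stag1, a cohesin subunit, was at 114, 104, 89.4, 89.7 and 76.5 CPM in F1 and 40.2 to 85.4 CPM in B6 (median 55.8), and rose by 0.75 ± 0.12 (adjusted p = 6.61e-05). Its F1 libraries each lay above the B6 libraries of the same batch. Cenpc1, which ties the kinetochore to centromeric chromatin, rose by 0.64 ± 0.14. Sgo2a, the shugoshin that protects centromeric cohesin in meiosis, rose by 0.43 ± 0.12, from 125 ± 11.7 to 166 ± 6.41 CPM. Ndc80, which binds spindle microtubules at the kinetochore, fell by 0.70 ± 0.16, from 118 ± 26.1 to 71.7 ± 6.32 CPM, with no overlap of libraries. Of 54 spindle, tubulin and kinesin genes, 3 were higher and 3 lower. Tuba3a, an alpha-tubulin with a near-identical paralogue, fell by 1.15 ± 0.18 (adjusted p = 3.6e-05). Over both batches 2 of 5 F1 libraries lay below all B6 libraries, and within each batch all F1 libraries did. Kif11, the motor that pushes spindle poles apart, rose by 0.47 ± 0.12, from 77.8 ± 8.76 to 109.7 ± 18.8 CPM. Sgo2a, Ndc80 and Kif11 were chosen for mention after their values were seen.

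Genes that store, translate and remove maternal mRNA included more higher than lower members in the fit to both batches. Of 50 genes of translational control and mRNA storage, 7 were higher and 2 lower, with a median of 0.12, but 4 and 3 were higher under the median-of-ratios and upper-quartile scalings. Batch 1 alone gave 0 higher and 2 lower, and batch 2 alone 0 and 0. Cpeb1, which drives cytoplasmic polyadenylation of stored mRNA during maturation, was at 224 and 187 CPM in F1 batch 2, 201, 183 and 169 CPM in F1 batch 1 and 246 to 309 CPM in B6 (median 279). It fell by 0.53 ± 0.10 (adjusted p = 0.000681), every F1 library being below every B6 library, and D2 eggs held 225 ± 46.7 CPM (SD, n = 5). Msi2, an RNA-binding protein of the Musashi family, fell by 0.95 ± 0.23 (adjusted p = 0.00723). Of its F1 libraries 4 of 5 lay below all of B6, and each lay below those of its own batch. Eif4ebp2, Eif4g3, Larp4, Fmr1, Eif4e3 and Igf2bp3 were among the 7 higher genes. Eif4ebp2, an inhibitor of cap-dependent translation, rose by 0.58 ± 0.14 and was singled out after its values were seen. Of 61 genes of mRNA decay, 5 were higher and 1 lower, against 2 and 1 in batch 1 alone and 0 and 0 in batch 2 alone. Patl2, an oocyte RNA-binding protein needed for oocyte maturation in humans, was at 31.2, 44, 43.5, 36.5 and 37.7 CPM in F1 and 13.4 to 29 CPM in B6 (median 20.5). It rose by 0.86 ± 0.19 (adjusted p = 0.00233). Lsm1, of the ring that promotes decapping, rose by 0.86 ± 0.19, from 8.08 ± 3.11 to 15 ± 3.37 CPM.

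Among 56 genes of maternal chromatin and DNA methylation, 3 were higher and 1 lower. Dnmt1, the maintenance DNA methyltransferase, was at 1941 and 1887 CPM in F1 batch 2, 1181, 1171 and 1286 CPM in F1 batch 1 and 1520 to 2403 CPM in B6 (median 2170). Its change was −0.44 ± 0.13 (adjusted p = 0.0308), and the call was lost without B6 batch 1 replicate 3 or F1 batch 1 replicate 3, 4 or 5 (0.0625 to 0.0895). Within each batch every F1 library was below every B6 library. Mga, a repressor that pairs with Max, was called at 0.38 ± 0.11 and lost its call without F1 batch 2 replicate 2, F1 batch 1 replicate 3, B6 batch 2 replicate 3 or B6 batch 1 replicate 1 (0.0552 to 0.0797). Of 83 DNA repair genes, 3 were higher and 1 lower. Lig4, the ligase of non-homologous end joining, was at 127, 122, 148, 131 and 119.6 CPM in F1 and 65.9 to 80.4 CPM in B6 (median 76.6), with a rise of 0.81 ± 0.12 (adjusted p = 1.95e-05). Poli, a translesion polymerase, rose by 0.86 ± 0.16 (adjusted p = 0.000303), also without overlap.

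Cytosolic ribosomal protein and respiratory chain transcripts were more often lower than higher. Of 81 cytosolic ribosomal protein genes, 7 were lower and 1 higher, with a median of −0.20 on the log2 scale against −0.04 over all genes. Rpl37 fell by 1.53 ± 0.25 (adjusted p = 5.26e-05), from 21 ± 11.3 to 8.11 ± 4.03 CPM. Of its F1 libraries 3 of 5 lay below all of B6, and each lay below those of its own batch. Rpl15 was at 33.5 and 38.4 CPM in F1 batch 2 and 98.5, 70.4 and 86.9 CPM in F1 batch 1, against 10.9 to 49.5 CPM in B6, and rose by 1.22 ± 0.18 (adjusted p = 9.83e-06). Many such genes have processed pseudogenes that can share their reads. Of 78 nuclear genes of the respiratory chain, 7 were lower and 1 higher, with a median of −0.14. Atp5o, a subunit of ATP synthase, was called at −0.92 ± 0.24, with groups that overlapped over both batches but not within either batch. It lost its call without F1 batch 1 replicate 5 (adjusted p = 0.0551). The higher gene, Ndufb6 of complex I, lost its call without F1 batch 2 replicate 1 (0.0664). In batch 2 alone where 45 genes were lower in all, no gene of either list was called lower, while batch 1 alone gave 11 and 4.

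Of 77 genes of mitochondrial ribosomal proteins, 4 were higher and none lower in edgeR's test, with a median of −0.04 (7 were lower at an unadjusted p under 0.05 and 1 by DESeq2). Mrps27 was at 44.1, 62.5, 39.7, 45.3 and 44 CPM in F1 and 18.4 to 26.2 CPM in B6 (median 22.6), a rise of 1.08 ± 0.14 (adjusted p = 1.08e-06). Mrps14, at 0.62 ± 0.18, lost its call without F1 batch 2 replicate 1 or 2, F1 batch 1 replicate 4 or B6 batch 2 replicate 2 (0.0512 to 0.0784). Of 46 genes of mitochondrial dynamics, biogenesis and import, 1 was higher and 2 lower. Hspa9, the chaperone that pulls proteins into the matrix, rose by 0.53 ± 0.11, from 141 ± 30.3 to 210.1 ± 48.1 CPM. Nrf1, a transcription factor of respiratory genes, fell by 0.51 ± 0.10, from 83.8 ± 12 to 59.9 ± 7.25 CPM, and its libraries did not overlap.

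Lipid and antioxidant genes moved in both directions. Of 60 genes of cholesterol synthesis and lipid droplets, 6 were higher and 4 lower, and of 56 antioxidant and glutathione genes, 6 and 3. Besides Pnpla3, Gpat3, which starts the synthesis of glycerolipids, was at 25.1, 24.4, 32.9, 32.8 and 32.3 CPM in F1 and at 0.036 to 1.47 CPM in B6 (median 0.817). It rose by 5.03 ± 0.34 (adjusted p = 2.06e-13), to 54% of the D2 level. The other higher genes were Msmo1, Soat1, Idi1 and Gpat4, at 0.51 to 1.01 on the log2 scale, and the lower ones Dgat2, Sc5d, Plin2 and Acadvl. Prdx3, the mitochondrial peroxiredoxin, was at 6.14, 5.72, 9.68, 9.7 and 16.1 CPM in F1 and 1.62 to 5.8 CPM in B6 (median 3.23), a rise of 1.35 ± 0.22 (adjusted p = 7.21e-05). Txnrd1, the cytosolic thioredoxin reductase (chosen with its values in view), fell by 0.57 ± 0.16, from 71.8 ± 8.57 to 49 ± 6.25 CPM. Of 55 genes of glycolysis, pyruvate and the citric acid cycle, 3 were higher and 3 lower. Me1, the cytosolic malic enzyme that yields NADPH, was at 153, 153, 224, 171 and 209 CPM in F1 and 272 to 377 CPM in B6 (median 299), with 32.4 ± 3.73 CPM in D2 (SD, n = 5). It fell by 0.80 ± 0.13 (adjusted p = 3.75e-05). Gpi1, the second enzyme of glycolysis, fell by 0.87 ± 0.18, from 48.9 ± 9.92 to 27.7 ± 5.87 CPM.

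In lists of protein turnover, innate defence, stress and cell death the share of members called ran from 4.88% (heat shock and stress) to 12.9% (apoptosis), against 7.36% over all genes. Of 51 proteasome and ubiquitin genes, 3 were higher and 1 lower. Psmd9, a chaperone of proteasome assembly, rose by 0.66 ± 0.16, from 32.5 ± 6.94 to 50.3 ± 7 CPM. Of 58 interferon and antiviral genes, 1 was higher and 2 lower. Trim30a, of a strain-variable Trim gene cluster, fell by 1.22 ± 0.22 (adjusted p = 0.00031), with no overlap. Of 41 heat shock and stress genes, 1 was higher and 1 lower. Egr1, an immediate early transcription factor, was at 147, 184, 149, 149 and 139.8 CPM in F1 and 75.8 to 113 CPM in B6 (median 94.8), a rise of 0.72 ± 0.10 (adjusted p = 1.97e-06). Hspa1b, an inducible Hsp70 gene with a near-identical copy, was called at −1.53 ± 0.47 and lost its call without any of 6 libraries: F1 batch 2 replicate 1 or 2, F1 batch 1 replicate 5, B6 batch 2 replicate 3 and B6 batch 1 replicate 1 or 3 (0.0503 to 0.112). Of 31 apoptosis genes, 1 was higher and 3 lower. Trp63, a guardian of oocyte genome integrity, fell by 0.49 ± 0.13, and lost its call without F1 batch 1 replicate 5 (0.0771). Bcl2, an inhibitor of apoptosis, was at 14.5 CPM in that library and 2.51 to 3.33 CPM in the other F1 libraries. Its change was 2.17 ± 0.62 with all libraries and 1.24 without that one (adjusted p = 0.235). The call was also lost without B6 batch 2 replicate 3 or B6 batch 1 replicate 1 or 3 (0.0519 to 0.0648).

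In small RNA pathways, which silence transposons and process miRNAs, 4 of 29 genes were higher and 1 lower. Mael, a maelstrom protein of the piRNA pathway, was at 78.7, 77.5, 79.9, 82.1 and 80.7 CPM in F1 and 32.7 to 43.3 CPM in B6 (median 37.1). It rose by 1.11 ± 0.14 (adjusted p = 4.41e-07), to 79.7% of the D2 level. Ddx4, a germ cell helicase, rose by 0.84 ± 0.17 and Dgcr8, a subunit of the miRNA Microprocessor, by 0.93 ± 0.19, both mentioned after their values were seen. Tdrd5, a tudor protein of germ granules, was at 149.9, 171, 187, 167 and 193 CPM in F1 and at 216 to 289.8 CPM in B6 (median 231), a fall of 0.50 ± 0.10 (adjusted p = 0.000919). Neither Mael nor Tdrd5 libraries overlapped between the groups.

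Among 50 transcription factors of the oocyte and of genome activation, with oocyte F-box genes, 3 were higher and 3 lower. None was higher under upper-quartile scaling. Fbxw13 fell by 0.69 ± 0.15 (adjusted p = 0.00217), from 92.9 ± 13.5 to 57 ± 6.51 CPM. In D2 eggs it was at 80.2 ± 13.7 CPM (SD, n = 5), and F1 minus D2 was −0.50 ± 0.15 (adjusted p = 0.0366). Fbxw15 fell by 0.54 ± 0.12 against B6 and differed by −0.45 ± 0.12 from D2 (adjusted p of 0.00222 and 0.0139). Fbxw28, Fbxw14 and Bnc1 were the higher ones and Fbxw16 the third lower one. The Fbxw genes lie in a cluster of near-identical copies, so that the split of reads between them is uncertain.

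Of 12 measured genes listed for known variants between B6 and D2, 4 were higher and 1 lower. They include Nnt, the mitochondrial transhydrogenase gene of which C57BL/6J carries a deletion. It was at 1.43, 1.34, 2.12, 0.443 and 0.326 CPM in F1 and at 0.0 to 0.319 CPM in B6, and rose by 2.95 ± 0.67 (adjusted p = 0.00382). Myo5a, in which D2 carries the dilute coat colour mutation, fell by 0.35 ± 0.10 (adjusted p = 0.0206), from 155 ± 29.2 to 117 ± 15.8 CPM, with 93.2 ± 26.2 CPM in D2. Sirpb1a, a signal regulatory protein, rose by 1.81 ± 0.27. The list was written from knowledge of the strains, so its direction is not independent of them. It was also chosen with earlier results of these data known. Its other higher members, Pnpla3 and Gsto2, are named above among the largest rises of the same comparison. The share of its members called is therefore not independent of these data. Nnt, Myo5a and Sirpb1a were singled out after their values were seen.

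**Figure D5:**
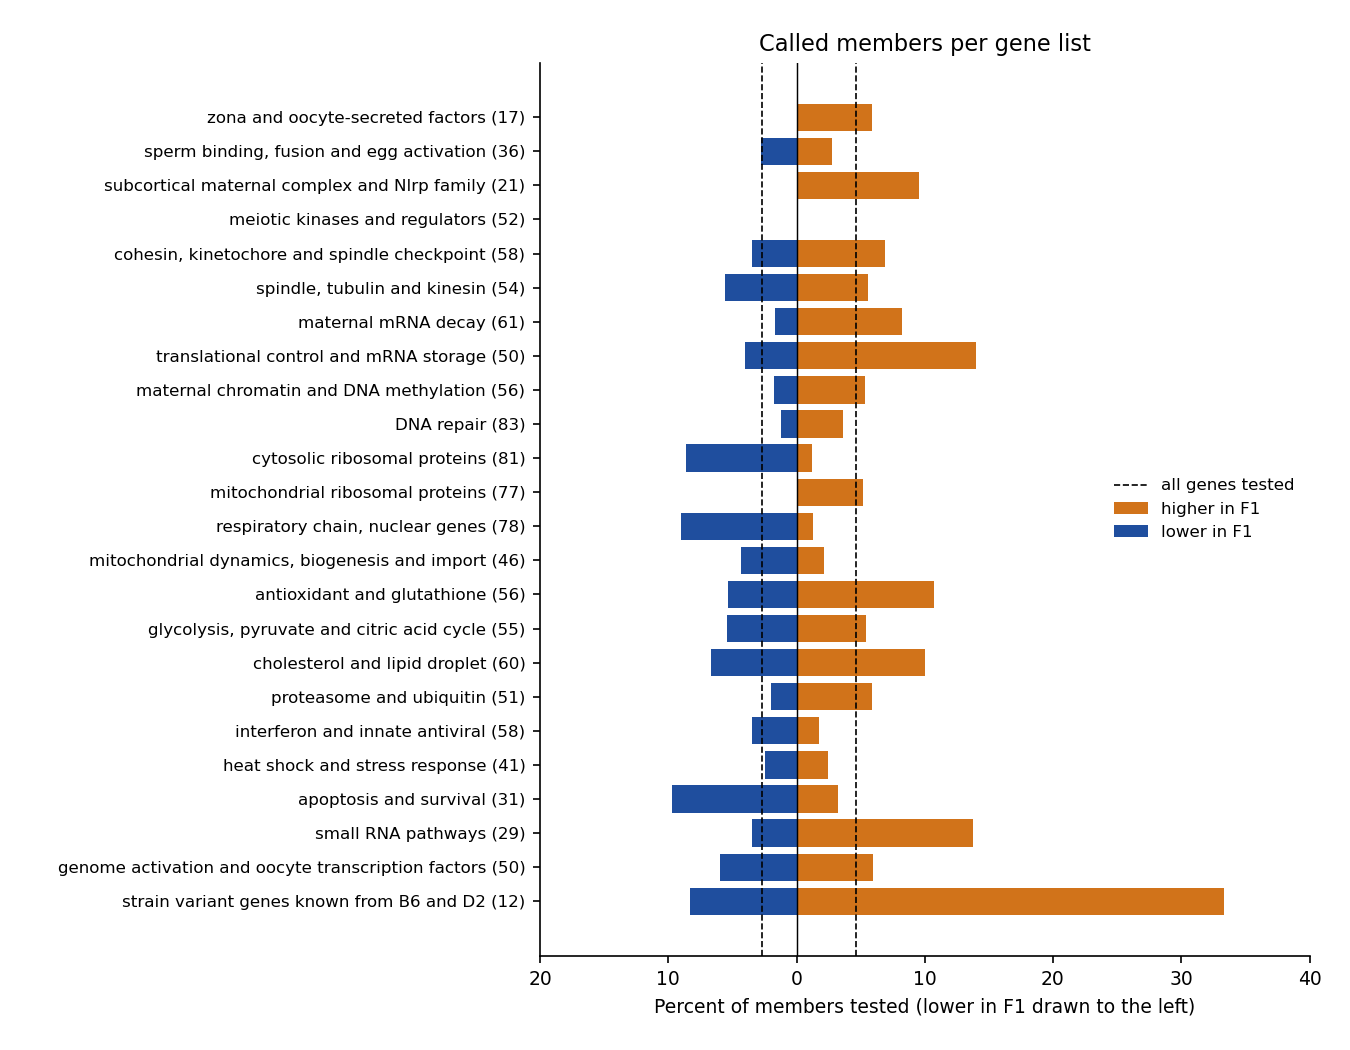
Percent of the measured members of each of 24 gene lists that were called higher (right) or lower (left) in F1 than in B6 MII oocytes, with the number of members tested in brackets. Dashed lines mark all genes tested, 4.66% and 2.70%, and the bars of cytosolic ribosomal proteins and the respiratory chain, with 7 lower and 1 higher member each, reach farther to the left than to the right, as those of some shorter lists do.

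Of the gene families, 57 of 230 Vmn1r genes passed the filter on low counts, and 16 were lower and 2 higher, with a median of −1.58. A member read mainly in B6 can pass that filter through its B6 libraries and then be lower in F1. These counts and the median therefore describe the members that passed and not the family. Vmn1r132, for example, was at 7.09, 3.03, 7.33, 7.6 and 5.43 CPM in F1, 13.7 to 28.1 CPM in B6 (median 16.9) and 0.0227 ± 0.0211 CPM in D2 (SD, n = 5). With a batch term of 3 levels 4 were lower. Of 47 Pramel and Oog genes, 6 were higher and 4 lower. Pramel29 rose by 0.72 ± 0.11 (adjusted p = 1.51e-05), from 1163 ± 152 to 1949 ± 316 CPM, but has a near-identical neighbour, Pramel25, at 0.73 ± 0.11. Of 381 zinc finger genes named Zfp, 19 were higher and 10 lower, close to the share of all genes. Vmn1r132 and the Pramel pair were chosen after their values were seen.

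Called genes were found on every chromosome, from 3.93% of 713 genes on X (24 higher, 4 lower) to 10.1% of 1148 on chromosome 1. There were 17 runs of at least 3 called genes that are neighbours among those tested. How many runs calls scattered over the genome would give was not worked out, and some runs hold near-identical copies that can share reads. The longest, on chromosome 8 from 21094971 to 21379495, held 5 defensin genes, all higher (Defa38, Defa30, Defa3, Defa29 and Defa2), which are near-identical copies. On chromosome 1, Selp was lower while Gm16548, F5 and Slc19a2 were higher, and farther along Aldh9a1 was lower while Mgst3, Gm34207 and Lrrc52 were higher. Around Bfsp1 on chromosome 2, the neighbours Pcsk2 and Dstn were higher by 5.22 and 0.64 on the log2 scale. Vmn1r107, Vmn1r111, Gm10668 and Vmn1r112 on chromosome 7 were all lower, as were Ighg2c, Ighg2b and Ighg1 on chromosome 12.

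Most genes called in batch 1 alone had the same direction in batch 2 alone. Of 385 genes higher in batch 1, 375 (97.4%) were also above 0 in batch 2, 133 of them called, and of 254 lower ones that were tested in both 234 (92.1%) were below 0, 29 of them called. None was called in the opposite direction. The medians of these genes were 1.70 in batch 1 and 1.18 in batch 2 for the higher set, and −1.22 and −0.71 for the lower set, against −0.05 over all genes in both batches. Of the 18054 genes tested in both, 45% were above 0 in batch 2. Batch 2 alone called 178 genes higher and 45 lower of 19097 tested.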

How the data were processed

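RNA-seq was made from pools of oocytes of single females, amplified by single primer isothermal amplification, per the labels' protocols. HISAT2, SAMtools, featureCounts of Subread 1.5.1, DESeq2 1.16.1 and the build GRCm38.p4 are named, per the submitters' processing notes. Strand and multi-mapping settings are not given in the sources used here, so overlapping and antisense genes and near-identical copies are uncertain. The reference is of the C57BL/6J strain, and how reads of D2 alleles aligned to it was not measured. The deposited table holds the authors' counts of reads per gene, not normalised. Of its 37444 entries, 3 named no gene (at most 0.019% of a library) and were left out, and 36371 of the rest were matched to a RefSeq name (GRCm38.p6).

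Genes were filtered with edgeR's filterByExpr on the 6 groups and scaled by TMM. A model of 6 groups and batch (2 levels) was fitted to all 32 libraries with robust quasi-likelihood functions of edgeR 4.0.16, which share an estimate of the spread. Tests were two-sided, with Benjamini-Hochberg adjustment per contrast and a threshold of 0.05, and the SE was the log2 change divided by the root of F. The fit was tested on simulated counts. The SDs and SEs include the spread between females.

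Named genes were those called, at 5 CPM or more in the higher group and with the same direction in each batch, predicted genes and pseudogenes being passed over: the 10 largest changes in each direction, the 6 with the lowest adjusted p in each direction at 50 CPM or more, and up to 2 per list. The comparison, the 28 gene lists, the families and the rule were chosen with earlier results of these data known. Genes on in a parent and near off in the other were defined from GV libraries by 5 and 0.5 CPM. No list test was run. A few genes that the rule names are not reported here.

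Other settings were the median-of-ratios and upper-quartile scalings, no filter or 1 CPM in 5 of the 11 libraries, DESeq2 1.42.0, limma-voom (limma 3.58.1), the 11 or the 16 MII libraries alone, no batch term or one of 3 levels, each batch alone, a replicate block, a test against 1.5-fold, and each of the 11 libraries left out. R 4.3.3 and Python 3.11.15 were used, the latter with matplotlib 3.10.9, pandas 2.3.3 and numpy 2.4.6.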

Additional observations from a re-analysis of the deposited data

Results flagged for a closer look

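In 6 of 138 groups of named genes a library stood apart from the rest of its group by more than the gap that chance gives in about 1 of 20 groups. That count is no greater than the chance share. Trem1 was at 40.6 CPM in B6 batch 1 replicate 3, against 2.24 to 9.82 CPM in the other 5. Fer1l6 was at 4.19 CPM in F1 batch 2 replicate 1, against 0.173 to 1.05 CPM in the other 4. F1 batch 1 replicate 5 was high for Poli, at 34.8 CPM against 22.4 to 25.8 CPM, and for Bcl2, at 14.5 CPM against 2.51 to 3.33 CPM. F1 batch 2 replicate 2, the library that stood apart on the first principal component, was high for Mrps27, at 62.5 CPM against 39.7 to 45.3 CPM, and for Egr1, at 184 CPM against 139.8 to 149 CPM.

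For a pair of genes the F1 minus B6 difference itself differed between the stages. That of Pxdn was 3.16 larger on the log2 scale at MII than at GV, and that of Pknox2 was 3.38 larger (adjusted p = 0.000188 for each in edgeR's quasi-likelihood test).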

How the results depend on the processing

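Of the 69 named genes, none changed direction under the 14 other settings or on leaving out any of the 11 libraries, and 24 kept their call in all of them. Calls were lost most often in batch 2 alone (40), in the test against 1.5-fold (37), without a batch term (21) and in batch 1 alone (17), where fewer libraries, a stricter question or an unmodelled difference bear on the test, and DESeq2 kept all 69. Genes higher numbered 468 without a batch term, 385 in batch 1, 178 in batch 2 and 234 against 1.5-fold, and 698 to 800 with a library left out. Genes lower numbered 974 by DESeq2, 216 without a batch term, 255 in batch 1, 45 in batch 2, 300 with a replicate block and 46 against 1.5-fold, and 333 to 462 with a library left out. At least 2-fold higher were 140 in batch 2 and 232 against 1.5-fold, and 355 to 385 with a library left out. At least 2-fold lower were 534 by DESeq2, 145 without a batch term, 162 in batch 1, 33 in batch 2, 140 with a replicate block and 45 against 1.5-fold, and 155 to 253 with a library left out. Genes whose difference changed with stage numbered 19 by DESeq2, 0 by limma-voom, 1 without a batch term, 6 in batch 1, 0 in batch 2 and 1 with a replicate block. They numbered 2 to 3 with any of the 11 MII libraries left out. No GV library was left out, so how far this count rests on single GV libraries was not tested. F1 against B6 at GV gave 416 without a batch term and 216 in batch 1, and D2 against B6 at GV gave 2558, 2449 and, in batch 2, 1942. The F1 level in genes near off in B6 was 43.2 to 50.7% of D2 with a library left out. In genes near off in D2 it was 33.2 to 37.8% of B6, 43.2% without predicted genes, pseudogenes and Vmn1r genes, and 43% with 10 CPM in place of 5 in GV, settings chosen after seeing the data. The cause of these changes was not tested. Deviations of same-numbered F1 and B6 MII libraries of a batch correlated at 0.0386, 0.0045 and −0.0514, and not every library correlated best with its own number. In batch 2 the deviations of the 2 F1 libraries mirror each other, so the check cannot show a pairing there. Pairing of GV and MII libraries with the same number was not checked. With the replicate number as a block, 616 genes were higher and 300 lower. Depth limits genes under about 5 CPM, where the B6 or F1 level can rest on a few reads.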
